A study of Danio rerio with 14 samples.

Results

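Catalase (cat, ENSDARG00000104702), extracellular superoxide dismutase (sod3a, ENSDARG00000070168), thioredoxin (txn, ENSDARG00000044125) and heme oxygenase 1 (hmox1a, ENSDARG00000027529) are 4 of the 19859 genes in a table of retinal gene expression from the choroideremia zebrafish. They were chosen by gene identifier for what they encode, as antioxidant genes. The study had already reported cat and sod3a as lower and txn as tending higher in these same retinas. The results of cat, sod3a and txn below are therefore no separate evidence for those changes. Bulk RNAseq was performed on retinas, RPE (retinal pigment epithelium) included, from 7 chmru848 zebrafish and 7 wild-type AB (wt) zebrafish at 5 days post fertilisation (dpf). The chmru848 fish carry a mutation of chm, which encodes rab escort protein 1, in every cell of the body, and the study describes degeneration beyond the eye and a retina that is losing its layers at this age. The samples of a genotype were taken as separate fish because the study's methods count fish per group, while the sample labels give only a number. Each sample is called a retina here, although the sources used do not say how many retinas of a fish went into it. The labels name no treatment for either genotype.

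Reactive oxygen species are made in the retina by photoreceptor and RPE metabolism and by light. Superoxide dismutases turn superoxide into hydrogen peroxide, which catalase and the peroxidases then break down to water. Thioredoxin keeps protein thiols reduced and passes electrons to peroxiredoxins, and heme oxygenase 1 opens the heme ring to give biliverdin, carbon monoxide and iron. In vertebrate cells the transcription factor Nrf2, held back by Keap1, raises the transcription of many of these genes under oxidative or electrophilic stress.

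The deposited values are log2 values after a variance-stabilizing transformation, on which a difference between genotypes is the chmru848 mean minus the wt mean. Levels are also given as normalized counts, obtained by undoing that transformation, in which 0 corresponds to the lowest value of the table. An estimated 14.3 to 29.2 M reads lay behind each chmru848 retina and 18.0 to 26.3 M behind each wt retina. The chmru848 retinas had 369 to 1983 genes at the lowest value, and the wt retinas had 317 to 628. The chmru848 replicates 1, 2 and 4 had more than 1000 such genes, and no wt retina did. The mutated gene itself (CHM, ENSDARG00000003845) had 310 ± 103 normalized counts in chmru848 retinas and 358 ± 54.6 in wt retinas (SD, n = 7 each), with a difference of −0.22 (SE 0.19, adjusted p = 0.358, limma). The genotypes overlapped for it, at 216 to 492 in chmru848 and 264 to 432 in wt retinas, so its level does not check the labels. Photoreceptor markers were present in every retina, with sums over 13 genes of 154711 to 714394 normalized counts in chmru848 and 511389 to 3430550 in wt retinas, and 9 of them were called lower and 1 higher in chmru848. Lens markers varied widely between retinas of both genotypes, with sums over 5 genes of 12.8 to 14194 in chmru848 and 23.8 to 67218 in wt retinas.

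Of the 4 antioxidant genes, txn rose and cat and sod3a fell in chmru848 retinas, while hmox1a did not pass the test. An adjusted p under 0.05 in limma's test across all genes was counted as a call. Calls were common in this comparison, at 43.7% of the 19751 genes tested (19.9% higher and 23.7% lower in chmru848), so 3 calls among 4 genes say little by their number. For the 3 called genes every chmru848 retina lay outside the range of the wt retinas, which held for 15.6% of all genes tested (7.57% higher and 7.98% lower). The median difference over all tested genes was −0.06. In retina taken as a whole, fewer cells of a type that expresses a gene and less RNA per cell cannot be told apart.

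**Figure D1:**
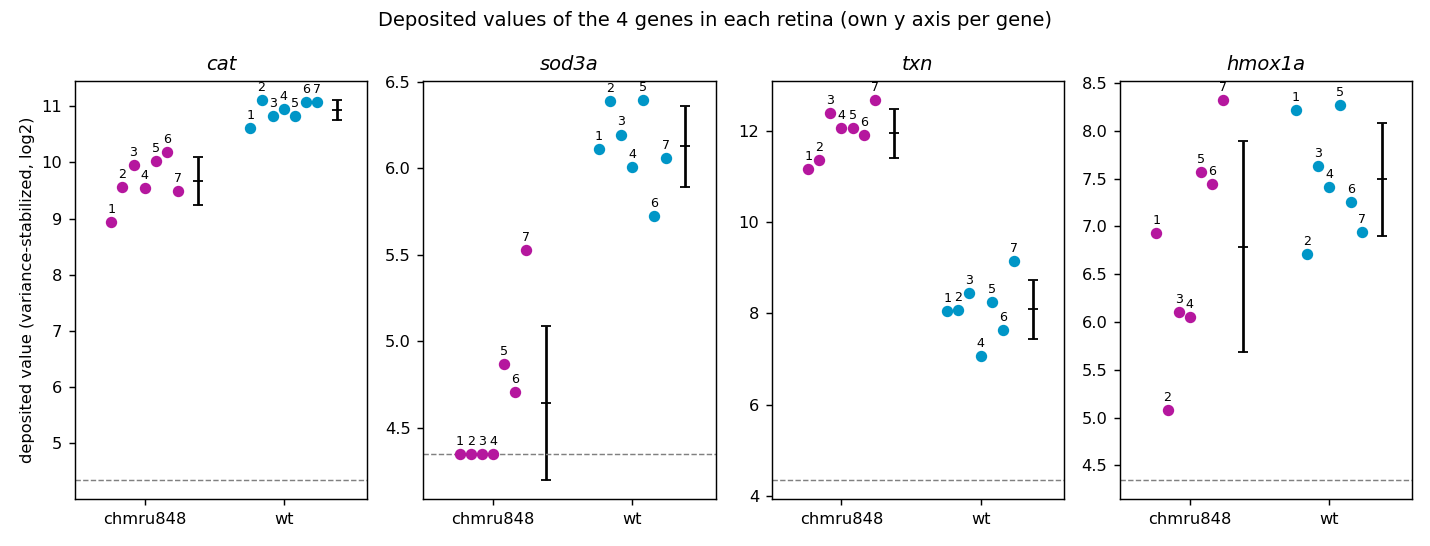
Deposited log2 value (y axis, its own range for each gene) of cat, sod3a, txn and hmox1a in every retina, with chmru848 in magenta and wt in cyan. The number at each point is the replicate, the black bar is the mean and SD of 7 retinas, and the dashed line is the lowest value of the table (4.35), where a gene had no reads. The genotypes are apart for cat, sod3a and txn and overlap for hmox1a.

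cat encodes the peroxisomal enzyme that splits hydrogen peroxide into water and oxygen. The chmru848 replicates 1 to 7 had 453, 711, 950, 708, 997, 1128 and 677 normalized counts of cat. The wt replicates 1 to 7 had 1534, 2171, 1776, 1945, 1784, 2127 and 2120. The highest chmru848 retina stayed below the lowest wt retina by 406 normalized counts, and the lowest value of all was in chmru848 replicate 1. The means were 803 ± 231 in chmru848 and 1922 ± 236 in wt retinas (SD, n = 7 each), 2.39-fold lower in chmru848. On the deposited scale the difference of cat was −1.26 (SE 0.19, 95% interval −1.65 to −0.87, adjusted p = 3.36e-05, limma). Of the 19751 genes tested, 1608 (8.14%) fell further than cat. The coefficient of variation of cat was 28.8% over the chmru848 retinas and 12.3% over the wt retinas.

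Estimated read numbers of cat ran from 397 to 1494 in chmru848 and from 1532 to 2572 in wt retinas. Among the 4 chmru848 retinas with under 1000 genes at the lowest value, cat ranged from 677 to 1128 normalized counts, still below every wt retina. With those 4 retinas alone set against wt, the difference of cat was −1.02 (adjusted p = 0.000513, limma), and it was −1.01 (adjusted p = 0.000652) with all 14 retinas and each retina's number of such genes fitted as a covariate. Both settings were chosen after seeing the data. The number of such genes comes from the same values and reaches higher in chmru848 than in wt retinas. Fitting it as a covariate can therefore also take away or add to a difference between genotypes, here and for the genes below. Liver, a tissue rich in catalase, was looked at through fabp10a, tfa and cp, whose summed level was 3.19 to 286 normalized counts in chmru848 and 79.3 to 586 in wt retinas, with 1 of the 3 genes higher and 2 lower in chmru848. The part of liver RNA in the level of cat was not tested.

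sod3a encodes a superoxide dismutase that is secreted and works outside the cell. It had 0 normalized counts in chmru848 replicates 1, 2, 3 and 4, then 2.67 in replicate 5, 1.25 in replicate 6 and 14.4 in replicate 7. The wt replicates 1 to 7 had 34.3, 48.1, 38.2, 30.1, 48.3, 19.9 and 32.1 normalized counts of sod3a. Every chmru848 retina was below every wt retina, and chmru848 replicate 7 came closest, with 5.54 normalized counts between it and the lowest wt retina. The means of sod3a were 2.62 ± 5.29 in chmru848 and 35.9 ± 10.1 in wt retinas (SD, n = 7 each). The difference on the deposited scale was −1.48 (SE 0.21, 95% interval −1.92 to −1.05, adjusted p = 1.88e-05, limma).

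The level of sod3a was low in both genotypes, and the deposited scale compresses differences of low genes. About 26.9 reads of sod3a were estimated over the 7 chmru848 retinas, 21.9 of them in replicate 7, against 256 over the 7 wt retinas (23.9 to 50.1 each). Each of the 4 retinas at 0 was also set to 3 reads of its own library, the level that a count of 0 allows. With this setting sod3a was 7.60-fold lower in chmru848. Replicate 6, at about 0.994 reads, was left as measured, so this ratio is not a strict lower bound. The ratio of the means as measured was 13.7, a log2 ratio of −3.78. Replicate 7 held most of the chmru848 signal. Without it the ratio as measured was 54.8, and it was 11.6 with the retinas at 0 set to 3 reads. The gene was above the lowest value in 10 of 14 retinas and so passed the filter on low values through the wt retinas alone.

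The 4 chmru848 retinas at 0 for sod3a were also the 4 with the most genes at the lowest value (760 to 1983). Among the 4 chmru848 retinas with under 1000 such genes, sod3a was 0 to 14.4 normalized counts, and their difference from wt was −1.26 (adjusted p = 0.000564, limma). The difference was −1.21 (adjusted p = 0.000413) with that number fitted as a covariate. RPE markers, summed over 9 genes of which 5 were called lower in chmru848 and the others not called, were at 1410 to 30062 normalized counts in chmru848 and 11630 to 31203 in wt retinas. The sum was 30062 in chmru848 replicate 7, the retina with the highest sod3a and the highest hmox1a of its genotype. Replicate 7 also had the most estimated reads (29.2 M) and the fewest genes at the lowest value (369) of its genotype. Replicate 5 came near it in both (28.2 M and 374). Its RPE sum was 19215, its sod3a 2.67 and its hmox1a 152 normalized counts. The lens marker sum was 14194 in replicate 7 and 12.8 to 1798 in the other chmru848 retinas. The parts of RPE content, of lens content and of depth in these levels were not tested.

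txn encodes a thioredoxin, a small protein whose paired cysteines reduce disulfides in other proteins. The chmru848 replicates 1 to 7 had 2248, 2586, 5296, 4263, 4204, 3812 and 6498 normalized counts of txn. The wt replicates 1 to 7 had 224, 229, 307, 97.0, 264, 161 and 527. All 7 chmru848 retinas lay above all 7 wt retinas, with a gap of 1720 normalized counts, and replicate 7 was the highest of each genotype. The mean of txn was 4129 ± 1473 in chmru848 and 258 ± 137 in wt retinas (SD, n = 7 each), which is 15.98-fold higher in chmru848. The difference on the deposited scale was 3.85 (SE 0.28, 95% interval 3.25 to 4.45, adjusted p = 1.38e-08, limma).

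Of the 19751 genes tested, 55 (0.278%) rose further than txn. The estimated reads of txn were 1955 to 9881 in chmru848 and 80.3 to 640 in wt retinas. Of the 3 chmru848 retinas with more than 1000 genes at the lowest value, replicates 1 and 2 had the lowest txn of their genotype, while replicate 4, at 4263 normalized counts, was above the chmru848 median. The difference was 4.16 (adjusted p = 6.34e-07, limma) against the 4 chmru848 retinas with under 1000 such genes and 4.24 (adjusted p = 4.41e-08) with the covariate. The neutrophil marker lyz was at 62.3 to 464 normalized counts in chmru848 and 2.09 to 22.9 in wt retinas, and was called higher. Of 3 microglia and macrophage markers, 0 were called (1, apoeb, at an unadjusted p under 0.05, limma), with sums of 14646 to 69800 in chmru848 and 8669 to 39429 in wt retinas. Nearly all of that sum was apoeb, which is also a Müller glia marker, while csf1ra was at 0 to 24.7 in chmru848 and 0 to 13.1 in wt retinas, and lcp1 at 0 to 104 in chmru848 and 20.8 to 66.4 in wt retinas. The part of immune cells in the level of txn was not tested.

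The gene called txn here is the copy listed as txnb. A second thioredoxin gene (listed as TXN, ENSDARG00000031435) was looked up after the values of txn had been seen. It had 4337 ± 1750 normalized counts in chmru848 and 2792 ± 845 in wt retinas (SD, n = 7 each), with ranges of 2814 to 7762 and 1113 to 3695. It differed by 0.62 (SE 0.27) and was not called (adjusted p = 0.0693, limma). The second copy of sod3 (listed as SOD3, ENSDARG00000079183) belongs to the redox list described below, as 1 of its 3 superoxide dismutases. This copy had 17.3 ± 15.4 normalized counts in chmru848 and 22.0 ± 16.2 in wt retinas. It differed by −0.15 (SE 0.27, adjusted p = 0.690, limma). How reads of near-identical stretches were shared between such copies is set by the authors' counting and was not tested.

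**Figure D2:**
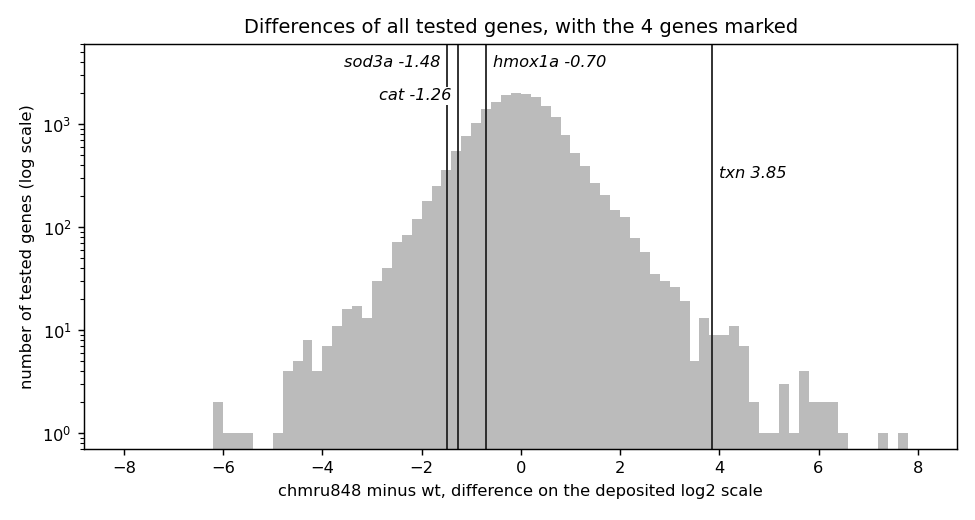
Number of genes (log y axis) by difference between chmru848 and wt retinas on the deposited log2 scale, over the 19751 genes tested, with a line at each of the 4 genes. txn, at 3.85, is in the far upper tail with 55 genes beyond it, while 1049 genes lie below sod3a (−1.48), 1608 below cat (−1.26) and 4226 below hmox1a (−0.70).

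hmox1a encodes the inducible heme oxygenase, which degrades heme. The chmru848 replicates 1 to 7 had 84.3, 5.36, 34.2, 32.1, 152, 136 and 281 normalized counts of hmox1a. The wt replicates 1 to 7 had 259, 68.2, 160, 132, 268, 115 and 86.0. The genotypes overlapped, since 3 chmru848 retinas (replicates 2, 3 and 4) lay below the wt range, 3 inside it and 1 (replicate 7) above it. The means were 104 ± 95.5 in chmru848 and 155 ± 79.8 in wt retinas (SD, n = 7 each). The difference of hmox1a, −0.70 (SE 0.41, 95% interval −1.57 to 0.16), was not called (adjusted p = 0.177, limma), and an exact two-sided permutation test of hmox1a alone over 3432 arrangements gave p = 0.171.

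On the deposited scale hmox1a had an SD of 1.11 over chmru848 retinas, the widest of the 4 genes in that genotype, and of 0.59 over wt retinas. Its lowest value, in chmru848 replicate 2, rested on about 4.05 reads, and its highest, in chmru848 replicate 7, on about 427. The estimate moved with the retinas included. Without chmru848 replicate 2 the difference was −0.42 (adjusted p = 0.370, limma), and without chmru848 replicate 7 it was −0.96 (adjusted p = 0.0486). It was −0.13 (95% interval −0.97 to 0.71, adjusted p = 0.817) against the 4 chmru848 retinas with under 1000 genes at the lowest value, and −0.07 (95% interval −0.96 to 0.83, adjusted p = 0.920) with the covariate. Erythrocytes carry the heme that the enzyme degrades, and their 4 markers (2 called lower in chmru848, the others not called) summed to 139 to 998 normalized counts in chmru848 and 318 to 2422 in wt retinas. The part of blood in the level of hmox1a was not tested.

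**Figure D3:**
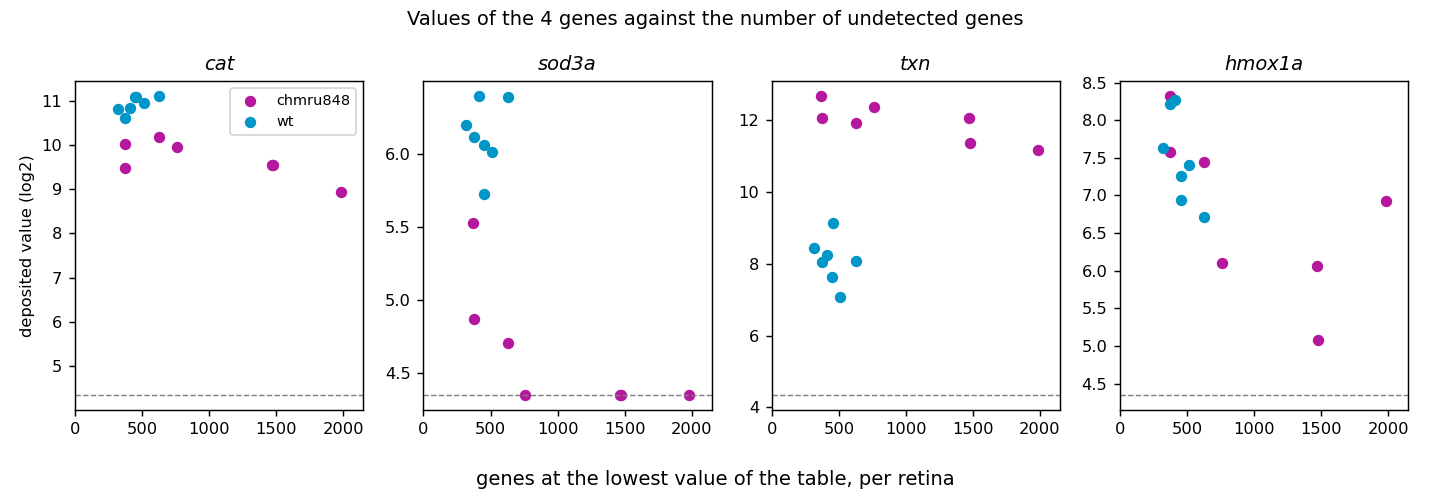
Deposited log2 value of each gene (y axis) against how many genes sat at the table's lowest value in the same retina (x axis), with chmru848 in magenta and wt in cyan, 1 point a retina; the dashed line is the lowest value (4.35). The chmru848 points run from 369 to 1983 such genes and the wt points from 317 to 628. Of the chmru848 retinas, only replicates 5, 6 and 7 lie within the wt range. The part of these numbers in the levels of the 4 genes was not tested.

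The 4 genes were then compared with each other within each genotype, over 7 retinas, in 12 relations on the deposited scale with exact two-sided permutation tests. In wt retinas hmox1a was lower where cat was higher, with Pearson's r = −0.90 (exact p = 0.00397, adjusted p = 0.0476) and Spearman's rho = −0.86 (exact p = 0.0238, adjusted p = 0.143). Without the 2 retinas farthest from the median of cat, r was −0.85. The rank correlation therefore failed the correction that Pearson's r passed. In chmru848 retinas the same pair had r = 0.12 (exact p = 0.817), and the difference between the genotypes was not tested. In chmru848 retinas sod3a and hmox1a had r = 0.83 (exact p = 0.0143, adjusted p = 0.0857) and rho = 0.91 (exact p = 0.00952, adjusted p = 0.114), with 4 retinas tied at 0 for sod3a, and r fell to 0.69 without the 2 farthest retinas. The 4 tied retinas, with 760 to 1983 genes at the lowest value, had hmox1a at 5.36 to 84.3 normalized counts. The other chmru848 retinas, with 369 to 628 such genes, had hmox1a at 136 to 281. The part of undetected genes in this relation was not tested. The sod3a and hmox1a pair did not pass the correction, and no other relation had an unadjusted p under 0.05.

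**Figure D4:**
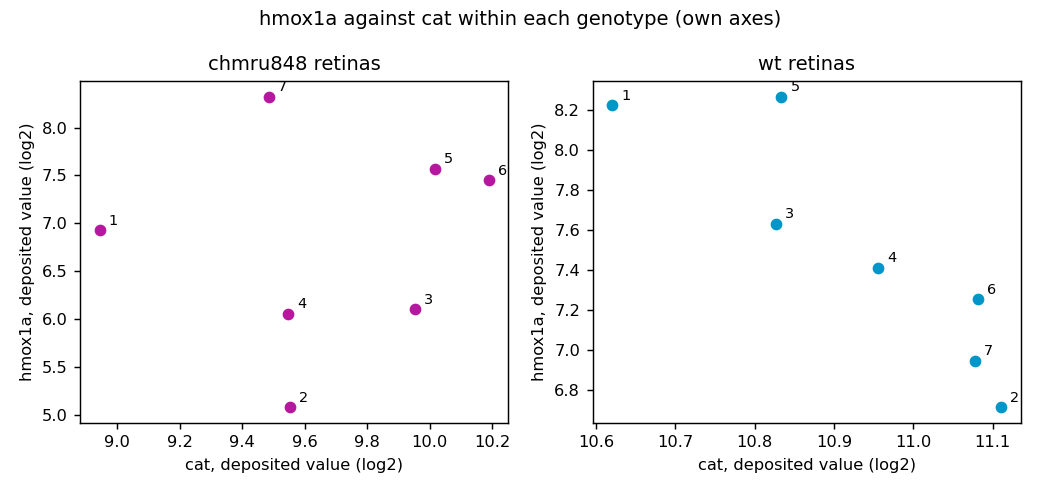
Deposited log2 value of hmox1a (y axis) against that of cat (x axis), in chmru848 retinas on the left and wt retinas on the right, each panel with its own axes; numbers are replicates. The wt points fall from upper left to lower right (r = −0.90) and the chmru848 points show no such order (r = 0.12).

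The genes whose pattern over the 14 retinas was most like each of the 4 were found by the mean absolute difference of values in SD units, among 18877 named genes. Those nearest to cat were slc7a2 (0.228), which encodes a cationic amino acid transporter, HMGXB4 (0.228) and FGF11 (0.235). Nearest to sod3a were arhgap20b (0.162), FADS6 (0.164) and VDAC1 (0.180), the last encoding a channel of the outer mitochondrial membrane. Nearest to txn were mdp1 (0.161), mrm3b (0.168), a mitochondrial rRNA methyltransferase gene, and NOC2L (0.169). hmox1a had no gene as close, the nearest being si:ch211-71m22.1 (0.379), vcanb (0.390) and zgc:154054 (0.418). Both genotypes were pooled, so genes that only share the split by genotype can lie close to cat, sod3a and txn. The genotypes overlap for hmox1a, so its larger distances cannot be set against those of the others.

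Other antioxidant and redox genes were taken from a list of 69 further symbols, of which 64 matched and gave 65 genes that were tested. Of these, 25 were higher and 7 lower in chmru848 retinas and 33 were not called, and the genotypes did not overlap for 14 (15.6% of all genes tested). The 49.2% called compares with 43.7% of all genes tested, and the median difference of the list was 0.49, against −0.06 over all genes. Genes that the study had itself picked from these retinas added to this count. Without them and without the genes of superoxide production, 49 genes remained, of which 11 were higher and 6 lower (34.7% called), with a median of 0.09. With the covariate of genes at the lowest value, 32 of the 65 genes were called, 25 of them shared with the 32 above. Of these calls 29 were higher and 3 lower. Over all 19751 genes tested, the fit with the covariate called 3549 higher and 3805 lower.

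**Figure D5:**
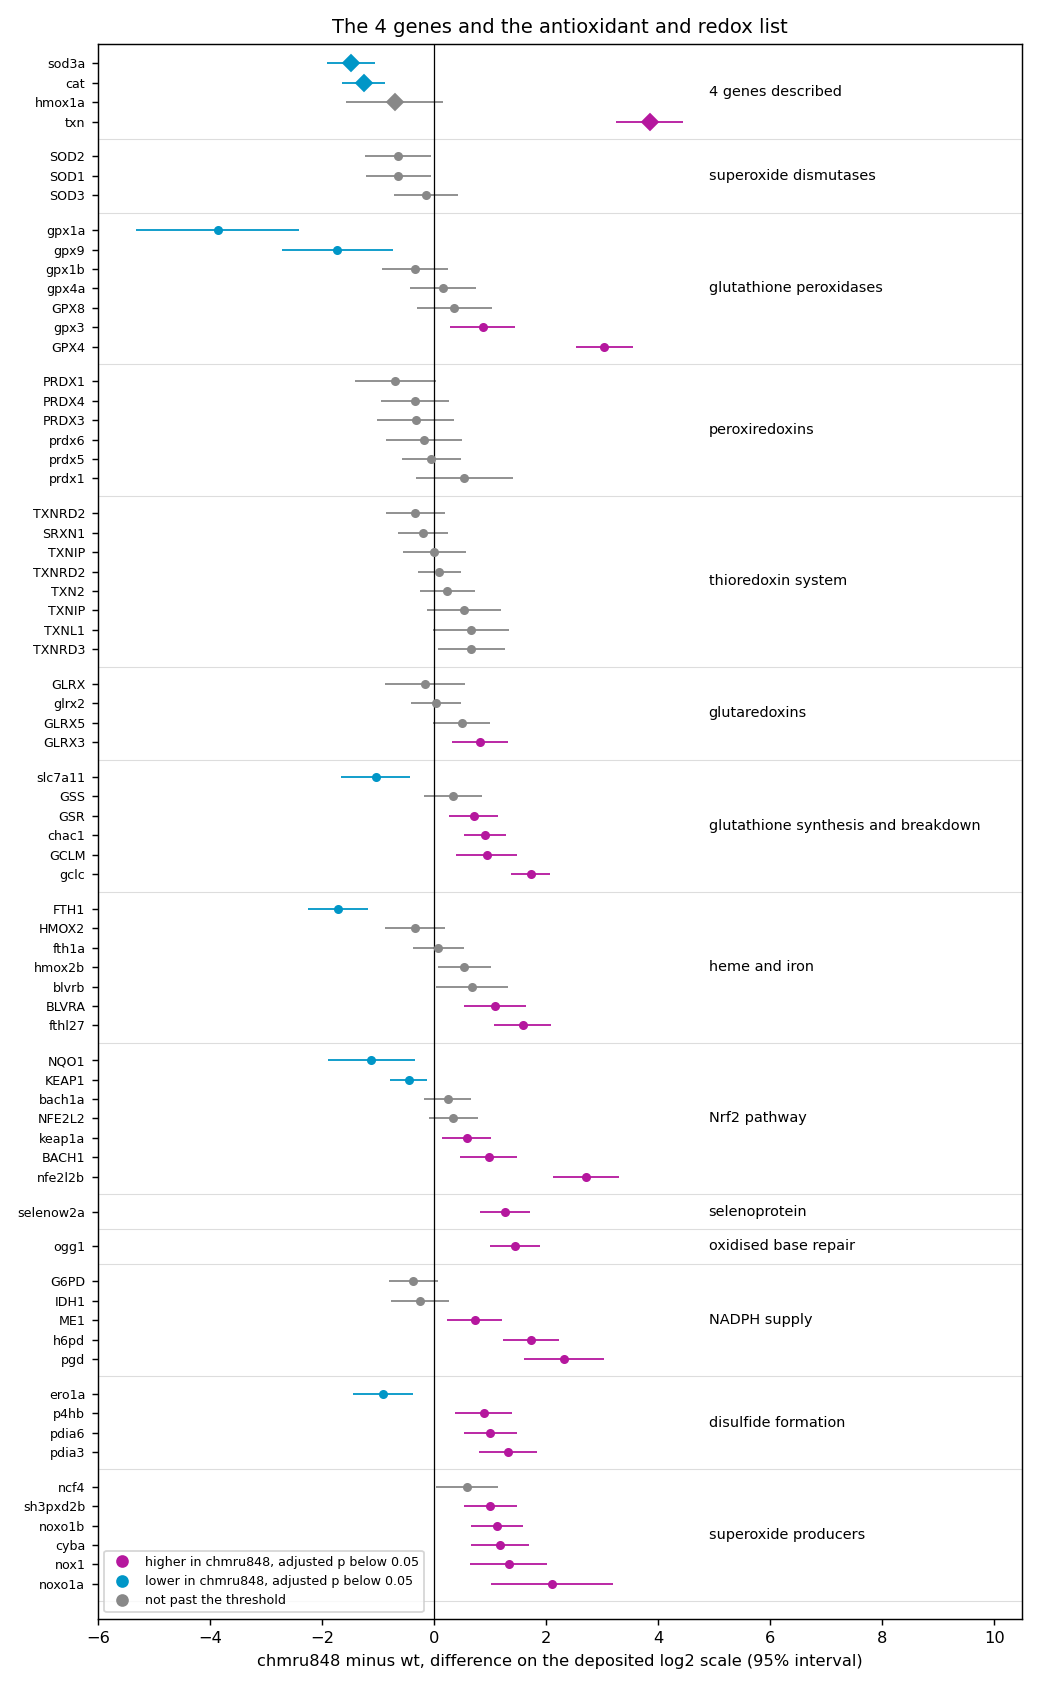
Difference between chmru848 and wt retinas on the deposited log2 scale (x axis) with its 95% interval, for the 4 genes (diamonds) and the 65 other antioxidant and redox genes (circles) by class. Magenta marks genes higher and cyan genes lower in chmru848 at an adjusted p under 0.05, and grey the rest. txn lies to the right of every gene of the list and gpx1a to the left.

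Among the enzymes that act beside sod3a and cat, the other superoxide dismutases had 0 of 3 genes called, with 2 at an unadjusted p under 0.05 (limma). The cytosolic SOD1 had a difference of −0.64 (adjusted p = 0.0683) and the mitochondrial SOD2 of −0.65 (adjusted p = 0.0694). With the covariate they were −0.08 (adjusted p = 0.809) for SOD1 and −0.17 (adjusted p = 0.649) for SOD2. Of 7 glutathione peroxidases, which like catalase remove hydrogen peroxide, 2 were higher and 2 lower, and 3 were higher and 1 lower with the covariate. Calls reached 43.7% of all genes tested, so counts in classes this small, here and below, say little by themselves. gpx1a fell to between 0 and 753 normalized counts in chmru848 against 731 to 1449 in wt retinas, and differed by −3.86 (SE 0.69, adjusted p = 0.000221, limma), or by −2.34 (adjusted p = 0.00286) with the covariate. The copy listed as GPX4 (ENSDARG00000076836) is of the type that reduces lipid peroxides. It rose to 49478 ± 17516 in chmru848 against 5807 ± 1661 in wt retinas and differed by 3.04 (SE 0.24, adjusted p = 4.09e-08). The copy gpx4a was not called, at 0.16 (adjusted p = 0.677, limma). Of 6 peroxiredoxins 0 were called, with 0 at an unadjusted p under 0.05 (limma), and with the covariate 1 was called higher, the copy listed as prdx1 (ENSDARG00000058734), at 1.21 (adjusted p = 0.0309) instead of 0.54.

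Of 8 other genes of the thioredoxin system, the second thioredoxin not among them, 0 were called, with 1 at an unadjusted p under 0.05 (limma), and 3 of them were called higher with the covariate. The thioredoxin reductase gene TXNRD3, which was 1 of those 3, had a difference of 0.66 (adjusted p = 0.0657), and of 1.20 (adjusted p = 0.00151) with the covariate. Of 4 glutaredoxins 1 was higher, GLRX3, at 0.83 (adjusted p = 0.00936). In the synthesis and breakdown of glutathione, the other main thiol reductant of the cell, 4 of 6 genes were higher and 1 lower. With the covariate 3 were higher and 1 lower, and GCLM was not called (adjusted p = 0.0694). Over all genes tested, 43.7% were called, and with the covariate 3549 were higher and 3805 lower. The study had picked 2 of the 4, gclc and chac1, on these retinas. gclc, the catalytic subunit of the rate-limiting enzyme of glutathione synthesis, rose to 1159 ± 249 normalized counts in chmru848 against 319 ± 45.3 in wt retinas and differed by 1.73 (SE 0.17, adjusted p = 3.25e-07). GSR, which encodes glutathione reductase, had a difference of 0.70 (adjusted p = 0.0116), and slc7a11, a subunit of the cystine importer, of −1.05 (adjusted p = 0.00831).

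Around hmox1a, 2 of 7 other genes of heme and iron were higher and 1 lower in chmru848, and 3 were higher and 1 lower with the covariate. The share called over all genes tested was 43.7%, which also stands beside the Nrf2 genes below. The constitutive heme oxygenase genes HMOX2 and hmox2b were not called, with differences of −0.34 (adjusted p = 0.288) and 0.54 (adjusted p = 0.0607). BLVRA, the biliverdin reductase that acts on the product of heme oxygenase, had a difference of 1.09 (adjusted p = 0.00253). Ferritin genes encode iron storage proteins. Of them, fthl27 differed by 1.58 (adjusted p = 5.27e-05) and the copy listed as FTH1 by −1.72 (adjusted p = 3.45e-05). The copy fth1a was not called, at 0.08 (adjusted p = 0.792, limma). Of 7 genes of the Nrf2 pathway, 3 were higher and 2 lower. With the covariate the 2 lower ones, NQO1 and the Keap1 copy listed as KEAP1, were no longer called. That copy differed by −0.45 (adjusted p = 0.0248, limma). The other Keap1 copy, keap1a, was called higher, at 0.58 (adjusted p = 0.0314, limma), and at 0.83 (adjusted p = 0.00783) with the covariate. nfe2l2b, 1 of the fish's copies of the Nrf2 gene, rose to 144 ± 68.8 normalized counts in chmru848 against 4.12 ± 8.57 in wt retinas. It differed by 2.71 (SE 0.28, adjusted p = 7.92e-07, limma). Its range was 65.2 to 256 in chmru848 and 0 to 23.3 in wt retinas. The gene was thus low in wt retinas, where the deposited scale compresses differences. The other copy, listed as NFE2L2, was not called, at 0.35 (adjusted p = 0.189). The copy listed as BACH1, a repressor of heme oxygenase 1 in mammals, had a difference of 0.97 (adjusted p = 0.00354). The copy bach1a was not called, at 0.24 (adjusted p = 0.338, limma). The quinone reductase gene NQO1 had a difference of −1.12 (adjusted p = 0.0211), which was −0.48 (adjusted p = 0.317) with the covariate.

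Thioredoxin and glutathione reductases draw on NADPH, and 3 of 5 genes of NADPH supply were higher and the others were not called, against 43.7% called over all genes tested. Of the 3, pgd and h6pd had been picked by the study on these retinas, and ME1 was not called with the covariate (adjusted p = 0.0798). pgd, of the pentose phosphate pathway, differed by 2.32 (adjusted p = 3.45e-05). Of 4 genes of disulfide formation in the endoplasmic reticulum 3 were higher and 1, ero1a, was lower, at −0.92 (adjusted p = 0.00714, limma). With the covariate ero1a (−0.74, adjusted p = 0.0611) and p4hb (adjusted p = 0.0608) were not called, which left 2 higher. Of 6 genes of superoxide production, like those of disulfide formation all picked by the study on these retinas, 5 were higher and 1 was not called.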

How the data were processed

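RNA from retinas of 7 chmru848 and 7 wt zebrafish was made into libraries with the SMART-Seq v4 kit. Per the submitters' notes the authors used Trim Galore 0.6.7, STAR 2.7.10a, RSEM 1.3.3 and DESeq2 1.38.3 with GRCz11. The deposited table holds log2 values after the authors' variance-stabilizing transformation, 1 per gene and retina, from 4.35 to 23.1. Its settings and gene filter are not given in the sources used here.

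Undoing the transformation, which needs only the table's lowest value, gave normalized counts. The spacing of low normalized counts was taken as 1 read and gave estimated read numbers: 51.6% to 64.3% of values up to 5 steps lay within 5% of a whole multiple, against 10% by chance, so read numbers are approximate, and floors cover counting error only. Genotypes were compared with limma 3.58.1 (R 4.3.3, mean-variance trend, two-sided) on the deposited values, with Benjamini-Hochberg adjustment over the 19751 genes that exceeded the table's lowest value in 7 or more of the 14 retinas. The scripts were tested on simulated data. Exact permutation tests used Python 3.11.15. Other filters, scalings, weights, pseudocounts (0.5 and 4), a replicate block and the omission of each retina were tried.

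Gene names came from a reference table of symbols, which gave a symbol to 18974 of the genes. Most copies are therefore printed as it lists them. Genes picked by the study are printed under the study's symbols. The 4 genes cat, sod3a, txn and hmox1a are listed there as CAT, SOD3, txnb and HMOX1. The 4 genes, the redox list and the markers were chosen with earlier results of these data known. The text names the 4 genes, the 3 named genes nearest to each, members of the list classes, and copies of txn and sod3a.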

Additional observations from a re-analysis of the deposited data

How the results depend on the processing

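Over 29 alternatives the difference of cat stayed between −1.35 and −1.01 and that of txn between 3.68 and 4.24. Each had an adjusted p under 0.05 in all 27 fits that gave one (highest 0.000652 for cat and 6.34e-07 for txn, limma). sod3a passed in all 26 such fits (highest adjusted p 0.000564), but its size depends on the scale: −1.48 as deposited, −3.78 as the log2 ratio of mean normalized counts and −4.79 on log2(normalized count + 0.5). It could not be tested when genes had to average 2 log2 units above the lowest value. hmox1a passed in 2 of 27 fits, with sample weights (−0.99, adjusted p = 0.0364) and without chmru848 replicate 7, over a range of adjusted p from 0.0364 to 0.920. When each retina was left out in turn, the differences ran from −1.35 to −1.14 for cat, −1.63 to −1.43 for sod3a, 3.68 to 4.03 for txn and −0.96 to −0.42 for hmox1a. Calls in the redox list ran from 22 to 41 over 27 alternatives. The 22 came when genes had to average 2 log2 units above the lowest value, which also left fewer genes of the list to test.

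Replicate numbers did not pair the retinas. Each gene's genotype mean was first taken away, so these correlations are of what remains and not of the expression profiles. On those values same-numbered retinas correlated at −0.12 to 0.10, and 0 of 7 chmru848 retinas correlated best with their own number. With the replicate number as a block, the differences were −1.26 (adjusted p = 0.000102) for cat, −1.48 (0.000204) for sod3a, 3.85 (1.78e-07) for txn and −0.70 (0.112) for hmox1a, the redox list had 37 calls, and 4036 genes were higher and 4791 lower. Few reads carry sod3a in chmru848 retinas, where 2 of 7 had 3 or more estimated reads. The chmru848 replicates 1, 2, 3 and 4, with 0 reads of sod3a, had 18.0 M, 14.3 M, 19.6 M and 17.6 M reads in all. The wt replicates 2, 4 and 6 had the fewest reads of their genotype (18.1 M, 18.0 M and 19.3 M). They had 33.9, 24.9 and 23.9 reads of sod3a. Genes at the lowest value numbered 1983, 1475, 760 and 1469 in these chmru848 retinas and 628, 511 and 450 in these wt retinas. The parts of depth and of undetected genes in the zeros of sod3a were not tested.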
